A study of Homo sapiens with 2 samples.

Results

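The keratin, S100A and cornified envelope genes are 106 protein-coding genes chosen by name. They comprise 55 keratin genes (KRT followed by digits), 16 S100A genes, 19 LCE genes, 11 SPRR genes and the single genes IVL, EVPL, TGM1, LOR and FLG. Pseudogenes and hyphenated names were left out. A gene counted as having a peak when the authors' list of YTHDF3-enriched regions held a row under its name, and as having none otherwise. By this rule 10 of the 106 genes had a peak, with 15 of the 18466 listed peaks. They were IVL, EVPL, KRT4, KRT5, KRT6B, KRT14, KRT15, KRT32, KRT80 and KRT86.

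Keratins build the intermediate filaments of epithelial cells. A type I keratin, most of whose genes lie on chromosome 17, pairs with a type II keratin from chromosome 12, and the pair in use changes with the layer and state of the epithelium. As squamous cells mature, transglutaminases link involucrin, envoplakin, loricrin, SPRR and LCE proteins into the cornified envelope under the plasma membrane. The S100A genes code for small calcium-binding proteins, and all 16 lie in the epidermal differentiation complex of chromosome 1 beside most of the envelope genes. YTHDF3 is a cytoplasmic protein that binds RNA carrying N6-methyladenosine (m6A).

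The data compare 1 library of RNA recovered with an antibody to YTHDF3 (RNA immunoprecipitation, RIP) with 1 input library. Both came from untreated KYSE30 cells, an established cell line from a human squamous cell carcinoma of the esophagus. Each group held 1 library, so no replicate error exists, no difference between conditions was tested, and no control antibody or cells without YTHDF3 were analysed here. Each peak carries the authors' fold enrichment (RIP over input), p and adjusted p, in hg38 coordinates, and read depth is unknown. A peak list does not report expression, so low expression and low recovery of a gene without a peak cannot be told apart.

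The DNA just before 4 of the genes with a peak is shown because it marks where the annotated transcript begins and so where the IVL and KRT32 regions end. The other 6 genes with a peak (EVPL, KRT6B, KRT14, KRT15, KRT80 and KRT86) have no entry in the RefSeq promoter table used (GRCh38.p14). Each line gives the 60 bases directly upstream of the annotated start, 5′ to 3′ on the strand of the gene, and capitals mark every match to TATAA or ATAAA, overlapping matches joined. IVL lies on the plus strand (chr1:152908486-152908545), and KRT32 (chr17:41467387-41467446), KRT5 (chr12:52520395-52520454) and KRT4 (chr12:52814117-52814176) lie on the minus strand.
IVL: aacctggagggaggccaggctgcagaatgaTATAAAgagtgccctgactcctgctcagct
KRT32: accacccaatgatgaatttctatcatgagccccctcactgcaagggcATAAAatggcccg
KRT5: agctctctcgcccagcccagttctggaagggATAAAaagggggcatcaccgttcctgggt
KRT4: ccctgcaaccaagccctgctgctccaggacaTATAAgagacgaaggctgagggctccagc

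The listed IVL region began 1 base before the annotated start, so the TATAAA of IVL, 30 to 25 bases upstream, lay outside it. The KRT32 region ran 43 bases past its annotated start and took in the ATAAA that lies 13 to 9 bases upstream. The KRT5 and KRT4 regions stopped 2677 and 2142 bases short of the start and did not reach the printed bases. A TATA-like element near the start was a frequent feature of these genes that the choice by name did not use. Over 80 of the 106 genes with a promoter entry, 37 (46.3%) had TATAAA within 50 bases upstream, searched on the strand of the gene, against 617 of 15813 protein-coding genes (3.90%). The shorter ATAAA, which every TATAAA contains, stood there in 55 of the 80 (68.8%), against 7.06% of protein-coding genes, and TATAA, which every TATAAA also contains, in 45 (56.3%), against 6.09%. TATAAA was present in 17 of 30 envelope genes, 15 of 34 keratin genes and 5 of 16 S100A genes. A match describes these letters and does not show that a factor binds there.

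Peaks were listed for few of these genes. Of the 106 genes, 10 (9.43%) had a peak, beside 40.0% of the 19974 protein-coding genes of the autosomes and the X chromosome. Keratins accounted for most of them, with 8 of 55 genes (14.5%), while 2 of 35 envelope genes (5.71%) and 0 of 16 S100A genes had one. At an adjusted p under 0.05, 7 of the 106 genes (6.60%) had a peak, beside 34.0% of protein-coding genes. The 7 were IVL, EVPL, KRT5, KRT6B, KRT14, KRT15 and KRT80. The listed adjusted p does not follow the listed p alone. KRT86, at a listed p of 0.0245, had an adjusted p of 0.202, whereas an EVPL region at 0.0251 had 0.0759. Counting only peaks whose fold enrichment was 5.02 (the median of the list) or more left 4 (IVL, KRT6B, KRT32 and KRT86), beside 28.7% of protein-coding genes. A peak that met both limits was listed for 2 of the genes, IVL and KRT6B, and for 23.7% of protein-coding genes.

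**Figure D1:**
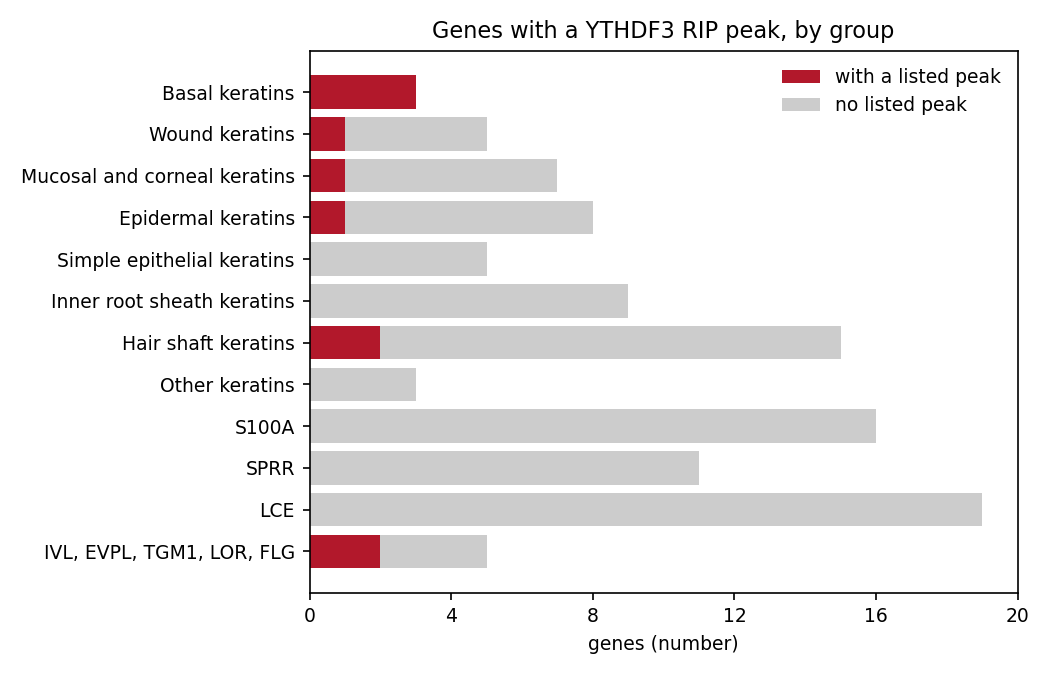
Number of genes with a listed peak (red) and without one (grey) in each group of the 106 genes. All 3 basal keratins had a peak, whereas no simple epithelial keratin, inner root sheath keratin, S100A, SPRR or LCE gene had one. The share over all protein-coding genes was 40.0%. The groups were chosen with earlier results of these data known.

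These genes are short. The median genomic length of the 106 genes was 5218 bases, beside 24171 bases over all protein-coding genes. Of the 51 genes shorter than 5000 bases, 2 (3.92%) had a peak, beside 19.8% of all protein-coding genes of that length. Of the 51 genes of 5000 to under 25000 bases, 7 (13.7%) had one, beside 37.2%. Of the 4 longer genes (S100A8, KRT8, KRT86 and SPRR2G), 1 had a peak, beside 48.6%. It was KRT86, at an adjusted p of 0.202. The share was thus below that of all protein-coding genes in each length class, though the longest class held only 4 genes. The length classes were chosen after the data were seen. The part of gene length in the low share was not tested beyond these classes, and transcript length was not analysed here.

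**Figure D2:**
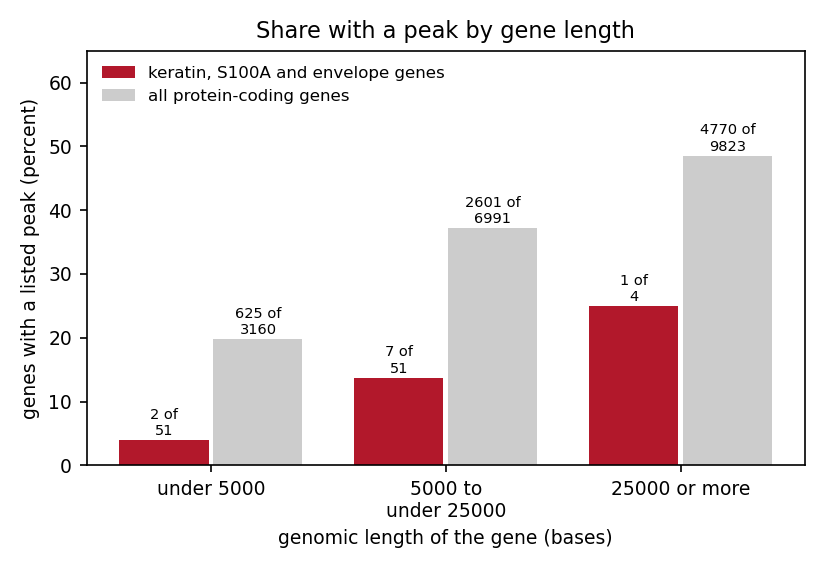
Percent of genes with a listed peak in 3 classes of genomic gene length, for the keratin, S100A and envelope genes (red) and all protein-coding genes (grey), with the counts above the bars. The red bar is lower in each class, at 3.92%, 13.7% and 25.0% (1 of 4 genes).

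Among the envelope genes, involucrin (IVL), a substrate of transglutaminase that forms an early scaffold of the envelope, had the smallest p of the 15 peaks. Its 1 peak had a fold enrichment of 5.94 with a listed p of 1.3e-71 and an adjusted p of 1e-69. The region ran over chr1:152908545-152911587 and covered 91.1% of the gene, from the annotated start to 299 bases before the annotated 3' end. By p, 1009 of the 18466 peaks (5.46%) ranked ahead of it. By fold enrichment it stood near the middle, with 55.1% of all peaks lower.

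Envoplakin (EVPL), a plakin that ties the envelope to desmosomes and keratin filaments, had 4 peaks, the most of any of these genes. From the 5' to the 3' side of the gene, on the minus strand of chromosome 17, their fold enrichments were 3.35, 2.20, 2.26 and 3.26. The region nearest the 3' end, chr17:76007684-76008942, had the smallest p, 1e-10, and its adjusted p was 8.3e-10. The region nearest the 5' end, chr17:76018491-76023396, had the largest fold enrichment and an adjusted p of 1e-04. The 2 regions between them had lower fold enrichments and adjusted p values of 0.0759 and 0.00575. Having 4 or more peaks was not rare, since 13.9% of protein-coding genes with a peak did. No peak was listed for the other envelope genes: TGM1, the transglutaminase of keratinocyte membranes, FLG, which codes for profilaggrin, LOR, which codes for loricrin, and every one of the 11 SPRR and 19 LCE genes.

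All 3 keratins of the basal layer had a peak, beside 40.0% of all protein-coding genes, and no difference was tested for so few genes. The list of basal keratins was chosen with earlier results of these data known. KRT5 and KRT14, the obligate pair of basal squamous cells, had best fold enrichments of 2.24 and 4.08, and KRT15, a type I keratin also found in basal cells, had 3.55. Each passed an adjusted p of 0.05, with values of 0.0339 for KRT5, 0.000102 for KRT14 and 0.000562 for KRT15. None reached the median fold enrichment of the list. KRT5 had a single region inside the gene, chr12:52515802-52517717, which covered 32.9% of it.

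The 2 KRT14 regions lay at opposite ends of the gene. The first, chr17:41586595-41586921, spanned 327 bases, ran 26 bases past the annotated start and had the higher fold enrichment, 4.08. The second, chr17:41582279-41583137, spanned 859 bases up to the annotated 3' end and had a fold enrichment of 1.88 with an adjusted p of 0.00776. That fold enrichment was the lowest among the 15 peaks. In KRT15 one region, chr17:41513743-41518403, covered 90.5% of the gene. A second region under that name, chr17:41519300-41520137, reached 3.45, with an adjusted p of 0.0676, and lay wholly upstream of the annotated gene.

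KRT6B, a type II keratin induced in wounds and in hyperproliferative epithelium, had the largest fold enrichment of these genes, 10.0. Its region, chr12:52446651-52447916, ended at the annotated 3' end and covered 23.0% of the gene, with a listed p of 0.0069 and an adjusted p of 0.0240. The related genes KRT6A and KRT6C had no listed peak. Neither had KRT16 or KRT17, the type I keratins expressed with KRT6 in wounds. The KRT6 genes are near-identical copies, and reads can also be shared between KRT14, KRT16 and KRT17 and between KRT81 and KRT86. How such reads were assigned is not given in the sources used here, so the placing of a peak on 1 copy is uncertain.

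KRT4, a keratin of the suprabasal layers of esophageal mucosa, had a fold enrichment of 2.13 with an adjusted p of 0.111, and its type I partner KRT13 had no listed peak. KRT80, a type II keratin described beside desmosomes in differentiating cells, had a fold enrichment of 4.27 with a listed p of 1e-50 and an adjusted p of 4e-49. Its region, chr12:52169924-52192000, spanned 22077 bases and covered 95.9% of the gene, introns included. KRT80 and IVL were the only genes of the 106 among the 10% of peaks with the smallest p, a limit that 7.99% of protein-coding genes met.

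The keratins of simple epithelium were without a listed peak: KRT7, KRT8, KRT18, KRT19 and KRT20. So were KRT1 and KRT10, the pair of the suprabasal epidermis, and all 9 keratins of the inner root sheath list. Of the 15 genes in the list of hair shaft keratins, 2 had a peak (13.3%), beside 40.0% of all protein-coding genes. The role lists left out 3 keratins (KRT33A and KRT33B, which are also hair keratins, and KRT222), and none of them had a peak. KRT86, a type II keratin of the hair cortex, had a fold enrichment of 7.53 with an adjusted p of 0.202, and KRT32, a type I keratin of the hair cuticle, had 6.27 with an adjusted p of 0.261. These 2 genes and KRT4 were the ones whose peaks all missed an adjusted p of 0.05. Of the keratins, 5 of 26 type II genes (19.2%) and 3 of 29 type I genes (10.3%) had a peak. Both shares lie below the 40.0% of all protein-coding genes. The type II genes are longer, with a median of 9178.5 bases against 5743, and no difference between the types was tested.

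**Figure D3:**
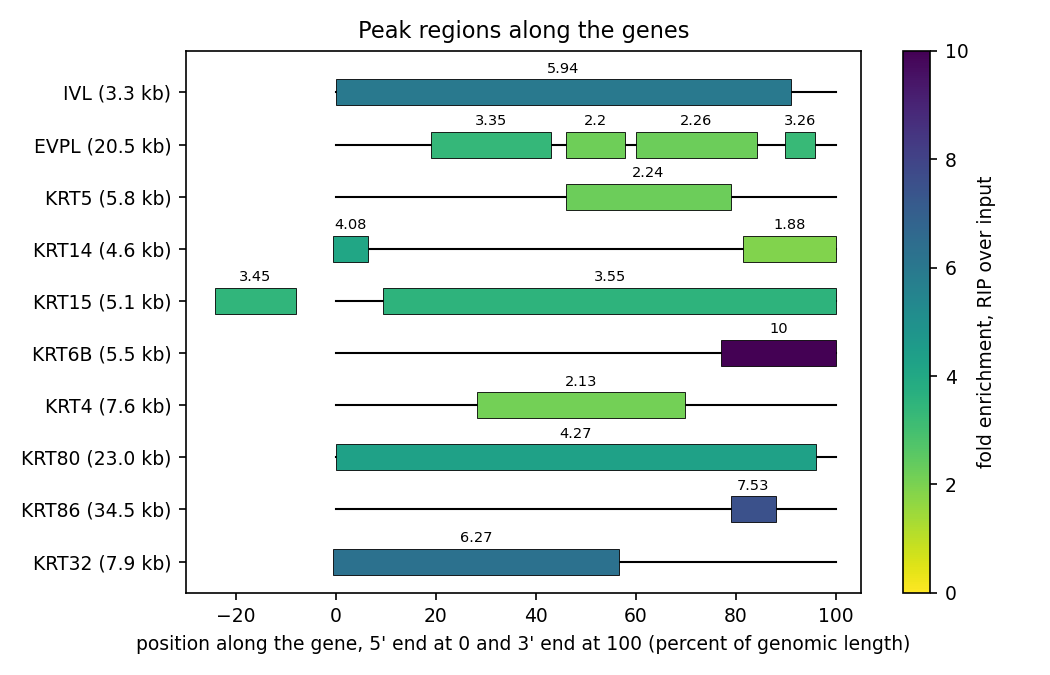
Listed regions (boxes) along each of the 10 genes with a peak, drawn as percent of the annotated genomic length from the 5' end (0) to the 3' end (100), with the fold enrichment above each box and as its colour. IVL, KRT80 and KRT15 are each covered over 90% by a single region, KRT14 at both ends, KRT6B at the 3' end, and the second KRT15 region lies upstream of the gene.

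Fold enrichment and p ordered these genes differently. By fold enrichment KRT6B (10.0), KRT86 (7.53) and KRT32 (6.27) led, with p values of 0.0069, 0.025 and 0.046. By p IVL and KRT80 led, with fold enrichments of 5.94 and 4.27. The leading fold enrichments were values that many peaks of the list share. The value of KRT86 was listed for 1500 peaks, that of KRT32 for 911 and that of KRT6B for 830. That of IVL was listed for 2 peaks and that of KRT80 for 29. Of the 911 peaks that share the value of KRT32, 5 had a larger p than KRT32. For KRT5, KRT4 and the second KRT15 region, none of the 21, 40 and 109 peaks of equal fold enrichment had a larger p, whereas 779 of 1500 did for KRT86 and 366 of 830 for KRT6B. Counts per peak were not analysed here, and the cause of the shared values was not tested.

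**Figure D4:**
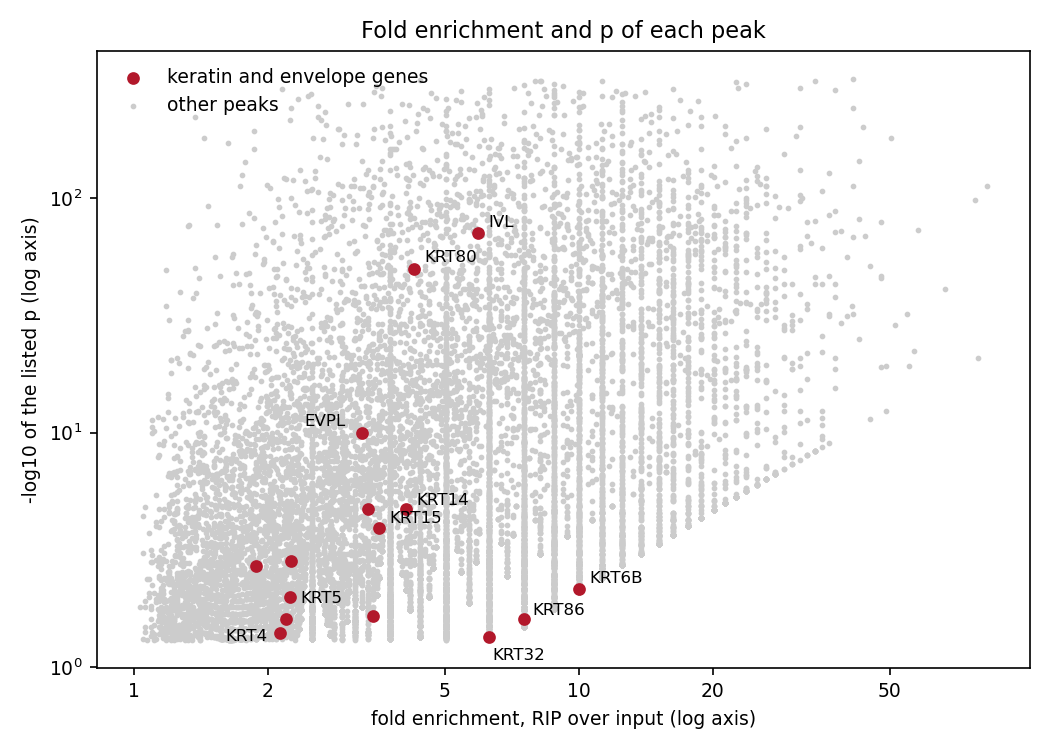
Fold enrichment (horizontal, log axis) against −log10 of the listed p (vertical, log axis) for every peak with p above 0, with the 15 peaks of these genes in red and the smallest-p peak of each gene named. KRT6B, KRT86 and KRT32 lie near the bottom of the plot, and IVL and KRT80 lie highest among the red points.

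Over the 10 genes with a peak, the best fold enrichment had a median of 4.175 and ranged between 2.13 in KRT4 and 10.0 in KRT6B. The median over all protein-coding genes with a peak was 7.53, the value that 1500 listed peaks share. Of the 15 peaks, 10 (66.7%) had an adjusted p under 0.05, beside 74.4% of all listed peaks. None of the 15 regions overlapped a peak of another name, which 18.2% of all listed peaks did. Their median span was 3043 bases, with a range of 327 to 22077, beside 3322.5 bases for all peaks. A single peak was listed for 7 of the 10 genes, beside 43.9% of protein-coding genes with a peak.

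The 3 gene clusters that hold all of these genes but EVPL and TGM1 differed in how many genes were listed. All had a smaller share of genes with a peak than the 40.0% of all protein-coding genes. In the epidermal differentiation complex, taken here as chr1:151982915-153634361, IVL was the only one of 63 protein-coding genes with a peak (1.59%). Among the S100A genes there, S100A8 and S100A9, which form calprotectin, and S100A2, S100A6, S100A10 and S100A11 were without one. The S100A11 gene, on the minus strand, was overlapped by a region of 20936 bases on the plus strand listed under the clone name AL591893.1, enriched 8.78-fold at an adjusted p of 0.142. It was not counted for S100A11, and no peak of another name overlapped any other of the 106 genes. In the type II keratin cluster of chromosome 12, chr12:52168996-52952906, 5 of 27 protein-coding genes had a peak (18.5%). In the type I cluster of chromosome 17, chr17:40654665-41624575, 3 of 28 keratin genes and 1 of the 34 other protein-coding genes had one. Together these were 6.45% of the protein-coding genes of that cluster. No difference between the clusters was tested.

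Genes that act beside the keratins and the envelope were listed to varying degrees. Of 30 further genes of cornification, 5 (16.7%) had a peak, beside 40.0% of protein-coding genes. CDSN, which codes for corneodesmosin, led with a fold enrichment of 22.6 (adjusted p 2.8e-05). PPL, which codes for periplakin, the partner of envoplakin, had 10.0 (adjusted p 1e-119), and the epidermal lipoxygenase gene ALOX12B had 8.16 (adjusted p 0.00389), its region crossing a peak listed under another name. Among the 25 without a listed peak were TGM3, TGM5, CSTA, CASP14 and SBSN. Of 13 other S100 and fused-type S100 genes, which include HRNR, TCHH and CRNN, only S100PBP had a peak, and it codes for a protein that binds S100P, not for an S100 protein.

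Other intermediate filament genes had a peak in 8 of 17 cases (47.1%), a share near the 40.0% of all protein-coding genes, and all 8 had a peak at an adjusted p under 0.05. SYNM, which codes for synemin, led with 28.9 and VIM, which codes for vimentin, followed with 15.1, each in a region that crosses a peak listed under another name. The cytolinker gene PLEC and the lamin gene LMNB2 each had 11.3. Desmosome genes, whose proteins anchor keratin filaments at the membrane, had a peak in 4 of 14 cases. Their best fold enrichments were 23.8 in PKP2, 5.86 in DSG3, 5.02 in PKP4 and 4.80 in DSP. The PKP4 region crosses a peak listed under another name. Transcription factors of squamous cells had a peak in 16 of 19 cases (84.2%). In OVOL1, TFAP2A, GRHL3 and ELF3 the region of largest fold enrichment crosses a peak listed under another name. TP63, a master regulator of basal squamous cells, had a best fold enrichment of 5.44, at an adjusted p of 1e-284. PITX1, GRHL2 and PAX9 had the largest best fold enrichments of that list, at 23.8, 22.8 and 21.3. These counts stand beside 10 of 106 for the keratin, S100A and envelope genes and 40.0% of all protein-coding genes, and no difference was tested. The lists were chosen with earlier results of these data known, so their shares are no independent contrast.

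A peak list cannot check the squamous label of the cells, because a peak does not measure expression. Of the squamous keratins, all 3 basal genes had a peak, beside 40.0% of protein-coding genes, though KRT14 can share reads with KRT16 and KRT17. A peak was listed for 1 of 5 wound keratins (KRT6B, whose copy is uncertain) and 1 of 7 mucosal and corneal keratins. KRT8, KRT18 and KRT19 of simple epithelium had none. Of 11 immune markers 3 had a peak (CSF1R, CD14 and CD68), beside 40.0% of protein-coding genes, and 2 of them had one at an adjusted p under 0.05, beside 34.0%. Of 10 markers of stroma and endothelium, CDH5 and COL3A1 had a peak. Neither had one at an adjusted p under 0.05, a value that does not follow p alone in this list. Markers of cell types other than the labelled one were thus also on the list.

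**Figure D5:**
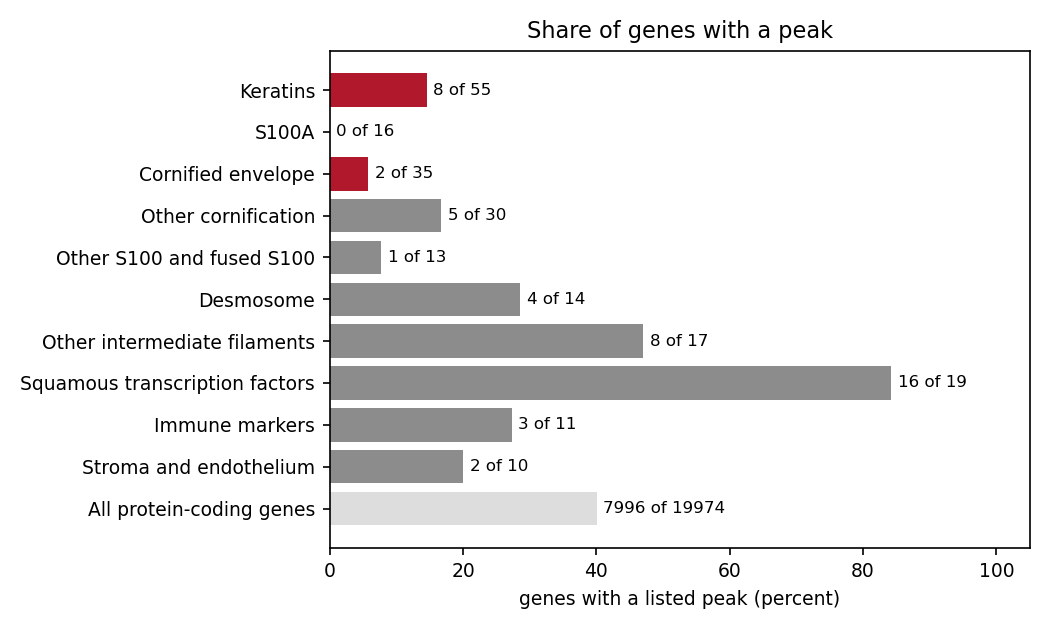
Percent of genes with a listed peak in the 3 families (red), in related gene lists (dark grey) and over all protein-coding genes (light grey), with the counts beside the bars. The families lie at 14.5%, 0% and 5.71%, and the squamous transcription factors at 84.2%. Families and lists were chosen with earlier results of these data known.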

How the data were processed

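The deposited file is 1 list of regions that the authors called in the YTHDF3 RIP library against the input library, with coordinates on hg38, per the submitters' processing notes. How reads were aligned, counted and filtered, and with which caller, annotation and strand setting, is not given in the sources used here. Per the labels' protocols, fragmented RNA was copied with random hexamers and molecular identifiers were added. Per the file headers, each region has a fold enrichment (the ratio of RIP to input), a p-value, an adjusted p-value, the same p-value in rounded form and a length. The largest listed p was 0.049 and the largest adjusted p 0.335. A smaller listed p can carry a larger adjusted p. An S100PBP region with a listed p of 0.0081 had an adjusted p of 0.0776, and KRT5, at 0.01, had 0.0339. The reason was not tested.

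Starts were taken as counted from 0, since 786 lay 1 below the start of their gene and 68 equalled it. The listed lengths equal end minus start plus 1, which would go with starts counted from 1. Spans given here are thus 1 base shorter than listed, and the lower coordinate of each region could be off by 1 base. Names were matched to RefSeq genes (GRCh38.p14) by current or older symbol on the same chromosome within 100000 bases, and 1145 peaks found no match. LOR is LORICRIN in RefSeq. Shares were set beside all 19974 protein-coding genes. No test was run, since each group has 1 library. Depth is unknown, so no counting interval is given. The genes named are all with a peak, those without within their group, and the leading and best-known genes of the other lists. Members and lists were chosen with earlier results of these data known. The code for name matching was checked on simulated peaks with current symbols only. That check does not cover older symbols or the names left unmatched. Analyses used Python 3.11.15 with pandas 2.3.3 and matplotlib 3.10.9.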

Additional observations from a re-analysis of the deposited data

How the results depend on the processing

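The count of 10 genes with a peak was 10 without regions shared with another name, with regions that overlap their gene only and with current symbols only. It was 7 at an adjusted p under 0.05, 4 with peaks at or above the median fold enrichment and 2 with the 10% of peaks of smallest p. With peaks at or above that median, the count of peaks was 4 instead of 15, that of keratin genes 3 instead of 8 and that of envelope genes 1 instead of 2. At an adjusted p under 0.05, the peaks numbered 10, the keratin genes 5 and the envelope genes 2. The count of S100A genes was 0 in each of these settings that was run for it. These lower counts follow from fewer peaks being kept. The median best fold enrichment of 4.175 was 3.885 with the median over each gene's peaks and 4.08 at an adjusted p under 0.05, beside 5.75 and 7.53 for all protein-coding genes with a peak. It was 4.175 in the peak with the smallest p of each gene, beside 6.27. No paired analysis was possible because each group has 1 library. Counts per peak were not analysed here, so the precision of a fold enrichment is unknown.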

Other observations

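Genes with similar names outside the rule had peaks of their own. KRTAP2-3, a keratin-associated protein gene inside the type I keratin cluster, had a fold enrichment of 15.1 with an adjusted p of 0.000562 over chr17:41059415-41060114, a region of 700 bases. It was the only one of 94 KRTAP genes with a listed peak, and KRTAP genes code for matrix proteins of the hair shaft. All 94 are shorter than 5000 bases, and 1.06% of them had a peak, beside 19.8% of all protein-coding genes of that length. S100PBP had 3 peaks with fold enrichments of 1.86, 1.62 and 10.0 from its 5' to its 3' side. The first of these had the smallest p, with an adjusted p of 2.5e-18, and the third an adjusted p of 0.0776.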
